A study of Rattus norvegicus with 6 samples.

Results

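Elastic fibre and crosslinking genes were taken as 10 genes: Eln, Fbn1, Fbln1, Fbln2, Fbln5, Mfap4, Mfap5, Lox, Loxl1 and Fn1. All probe sets that the platform annotation names by one of these symbols were used, which gave 12 of the 15923 probe sets on the array, with 2 each for Fbn1 and Lox and 1 for each other gene. The cells were mesenchymal stromal cells, plastic-adherent cells of fibroblast shape, cultured from mononuclear cells of the peripheral blood and of the bone marrow of 3 GFP transgenic rats named S4, S5 and S6. Each rat gave 1 blood and 1 marrow culture, grown in the same serum-containing medium without a treatment, and its RNA at passage 2 was measured on an Affymetrix RAE230A array. Both groups carried the GFP transgene; its promoter, and the strain, age and sex of the rats, are not given in these sources.

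Elastic fibres consist of a core of crosslinked elastin laid down on a scaffold of fibrillin microfibrils. Fibulins and microfibril-associated proteins bring tropoelastin, the soluble elastin precursor, to that scaffold, and lysyl oxidases crosslink it by oxidising lysine side chains. Fibronectin forms an early matrix on which fibrillin microfibrils and lysyl oxidase are deposited, and stromal cells and smooth muscle cells make most of these proteins.

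In the comparison of blood with marrow cultures of the same animal, Mfap4, Fbln2, Fbn1 and Fbln1 had higher signals in blood cultures of all 3 rats. Fbln5 and Loxl1 had lower signals in all 3. Lox and Fn1 were bright in both kinds of culture and differed by at most 0.10 on the log2 scale, Mfap5 followed no common direction, and Eln was dim on every array. None of these differences passed an adjusted p of 0.05 in limma with the rat as a term. The smallest adjusted p were 0.0533 for Mfap4, 0.0622 for Fbln2, 0.0663 for Fbln5 and 0.0818 for Loxl1.

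The fibulin pair Fbln2 and Fbln5, which encode related secreted glycoproteins with calcium-binding EGF-like modules, had the largest differences of opposite sign that could be matched to a promoter in RefSeq, and the 250 bases before each start are therefore shown (GRCr8 build, 5′ to 3′ on the gene's strand). Fbln2 lies on the plus strand, with this window at chr4:125261409-125261658, and Fbln5 on the minus strand, with its window at chr6:126742707-126742956. Capitals mark matches on either strand to the GC box, GGGCGG, or to CAGAC, the short SMAD box.
Fbln2: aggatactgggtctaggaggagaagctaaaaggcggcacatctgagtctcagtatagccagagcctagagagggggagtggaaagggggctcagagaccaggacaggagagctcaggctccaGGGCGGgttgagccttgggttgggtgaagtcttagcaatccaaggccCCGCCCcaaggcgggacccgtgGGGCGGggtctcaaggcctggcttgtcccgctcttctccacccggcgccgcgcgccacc
Fbln5: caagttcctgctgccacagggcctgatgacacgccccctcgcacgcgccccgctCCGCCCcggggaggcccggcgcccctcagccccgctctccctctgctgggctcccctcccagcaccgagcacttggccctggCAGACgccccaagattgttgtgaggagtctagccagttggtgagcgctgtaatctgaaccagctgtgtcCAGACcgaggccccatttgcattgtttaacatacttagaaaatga
The Fbln2 window held 3 GC boxes, whose first bases lie at -128, -81 and -59 from the start, and no SMAD box. The Fbln5 window held 1 GC box at -196 and 2 SMAD boxes at -114 and -45. Of 33469 rat promoter windows of this length, 30.5% held a GC box and 42.9% a SMAD box, so both motifs are common. Neither window held a CCAAT box, a TATA box (searched as TATAAA) or an AP-1 site (searched as TGACTCA). Of the other members with a window in the table, Loxl1 had 2 SMAD boxes, Fbn1 had 1, and Mfap5 had 1 CCAAT box and none of the others. RefSeq windows were found for 5 of the 10 genes, and none of these matches was measured here as a bound site.

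Values below are log2 signals as deposited, with the base of the logarithm read from the values. Differences are blood minus marrow, with the SE of the limma fit, and 95% intervals are not adjusted for the number of probe sets. A group mean is given ± SD (n = 3), and the number of arrays limits its precision. A probe set was tested if its signal lay above the median of the whole table, 8.18, on at least 3 of the 6 arrays. Of the 12 probe sets 11 passed, standing for 9 genes, and Eln did not.

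**Figure D1:**
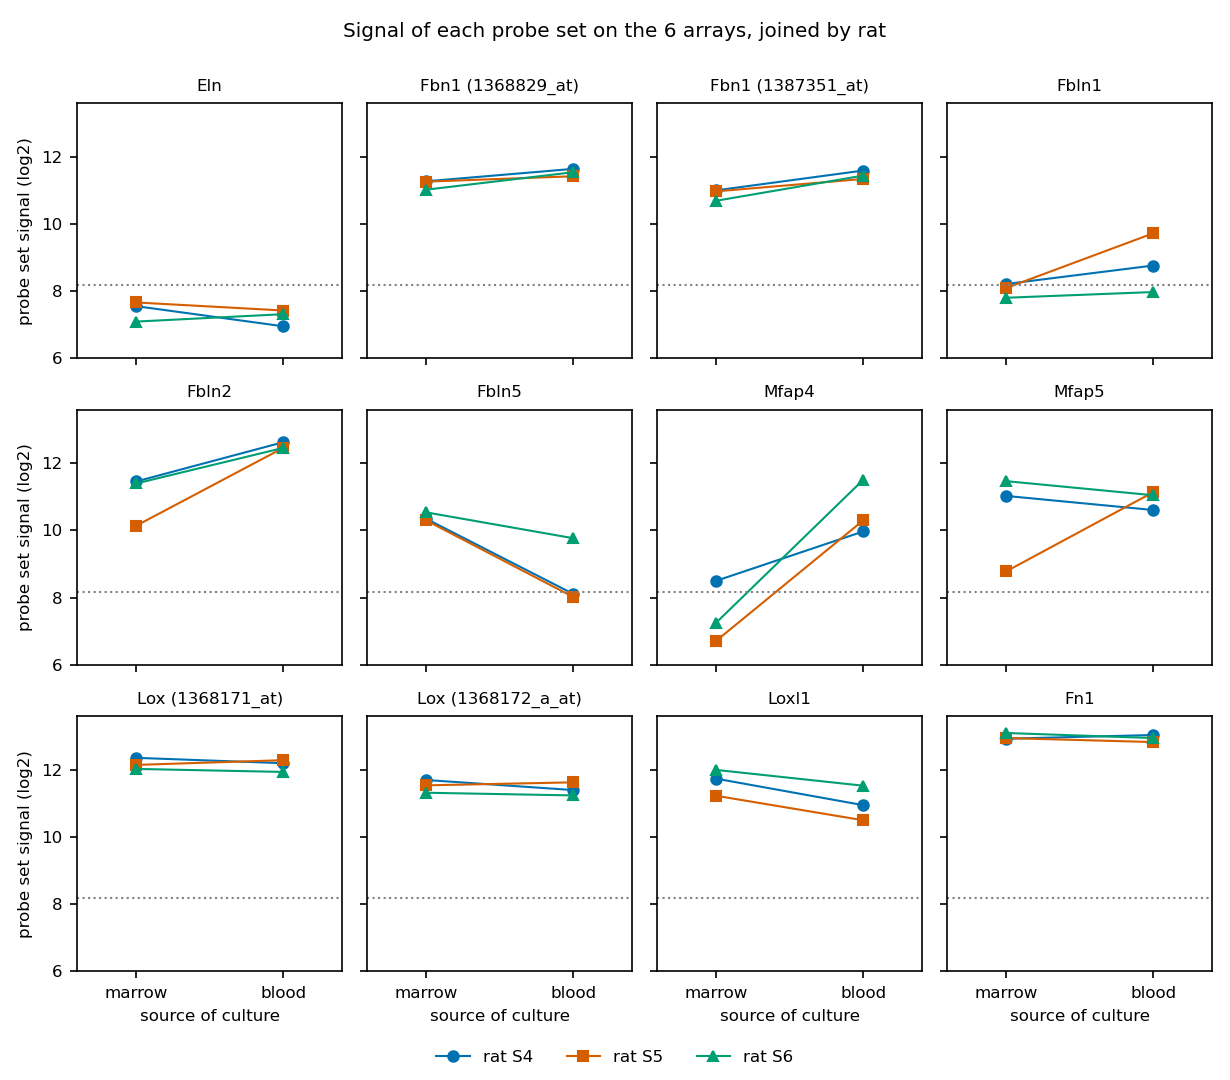
Log2 signal of each of the 12 probe sets (vertical axis) in marrow and blood cultures (horizontal axis), with a line for each rat and the median of the whole table, 8.18, dotted. Mfap4, Fbln2 and both Fbn1 probe sets lie higher on all 3 blood arrays than on any marrow array, Fbln5 lies lower, and Lox and Fn1 lie almost level.

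Fbn1 encodes fibrillin-1, the main protein of the microfibril scaffold. Its probe set 1387351_at stood at 11.59, 11.34 and 11.44 in blood cultures of rats S4, S5 and S6, and at 11.00, 10.97 and 10.69 in their marrow cultures. All 3 blood arrays thus lay above all 3 marrow arrays, with a narrow spread on both sides. The difference was 0.57 ± 0.13, or 1.48-fold (95% interval 0.24 to 0.90, adjusted p = 0.13). The other probe set, 1368829_at, was at 11.64, 11.42 and 11.54 in blood cultures, against 11.27, 11.26 and 11.02 in marrow cultures, again without overlap. It differed by 0.35 ± 0.13 (95% interval 0.027 to 0.67, adjusted p = 0.312). Both probe sets of Fbn1 ranked the rats alike, with the smallest difference in rat S5 and the largest in rat S6.

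Mfap4, a fibrinogen-domain glycoprotein that binds fibrillin, tropoelastin and lysyl oxidase, had the widest difference of the 11 tested probe sets. Its probe set 1371700_at stood at 9.97, 10.30 and 11.51 in blood cultures of rats S4, S5 and S6, a mean of 10.59 ± 0.81. In marrow cultures it stood at 8.50, 6.71 and 7.25, a mean of 7.49 ± 0.92. The lowest blood array was above the highest marrow array, but the size varied, with differences of 1.47, 3.59 and 4.26 in the 3 rats. Their mean was 3.11 ± 0.52, or 8.61-fold (95% interval 1.82 to 4.39, adjusted p = 0.0533). Marrow levels of rats S5 and S6 lay below the table's median, where no background level is known, so this fold is approximate. Without rat S5 the adjusted p was 0.0392 at a difference of 2.87, and without rat S4 it was 0.152 at a difference of 3.93. No probe set on the array passed without rat S4, where 0.152 was the smallest adjusted p in limma of all 8135 tested.

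Mfap5, also known as MAGP-2, is a small microfibril protein that binds fibrillin and Notch ligands. In blood cultures its probe set 1373674_at was at 10.61, 11.14 and 11.05, and in marrow cultures at 11.03, 8.78 and 11.47. The marrow culture of rat S5 stood far below the other 5 arrays, which lay within 10.61 to 11.47. The differences were -0.42, 2.36 and -0.42 by rat, and their mean of 0.51 ± 0.57 was smaller than the spread of the 3 rats (95% interval -0.90 to 1.92, adjusted p = 0.808). Without rat S5 the mean was -0.42, so the sign of the mean over all rats rested on that rat.

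Fbln2 encodes fibulin-2, which binds fibrillin, tropoelastin and fibronectin. The signal of its probe set 1389533_at was 12.63, 12.46 and 12.46 in blood cultures, a mean of 12.52 ± 0.098, against 11.46, 10.14 and 11.40 in marrow cultures, a mean of 11.00 ± 0.75. Blood cultures lay close together and all above the marrow cultures, among which rat S5 was lowest. The difference was 1.52 ± 0.27, or 2.86-fold (95% interval 0.85 to 2.18, adjusted p = 0.0622), made up of 1.17, 2.32 and 1.06 in rats S4, S5 and S6. Leaving out rat S5, which had the largest difference, lowered the mean to 1.12 and the adjusted p to 0.0161. Without rat S4, where no probe set on the array passed, the adjusted p was 0.479. The adjusted p of Fbln2 in limma was 0.111 to 0.123 under 3 other scalings of the arrays. It was 0.158 without a filter and 0.136 with a variance trend.

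Fbln5 encodes fibulin-5, which links tropoelastin to microfibrils and, through an RGD sequence, to integrins on cells. Its probe set 1367866_at stood at 8.11, 8.02 and 9.77 in blood cultures and at 10.35, 10.30 and 10.54 in marrow cultures. Marrow cultures were nearly alike, at 10.40 ± 0.13, and all above the blood cultures, among which rat S6 was closest to them. By rat, in the order S4, S5 and S6, the differences were -2.24, -2.28 and -0.77, with a mean of -1.76 ± 0.32, or 3.39-fold (95% interval -2.56 to -0.97, adjusted p = 0.0663). Blood levels of rats S4 and S5 lay just under the table's median of 8.18, which leaves the fold approximate. Without rat S6 the difference was -2.26 and the adjusted p 0.03. Without rat S4, where no probe set on the array passed, the adjusted p was 0.515. Other scalings of the arrays, 3 in number, gave Fbln5 an adjusted p of 0.111 to 0.141 in limma. It was 0.166 without a filter and 0.123 with a variance trend.

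Fbln1 (1372518_at), or fibulin-1, which associates with elastin, fibronectin and basement membranes, was near the table's median in marrow cultures, at 8.21, 8.09 and 7.80. In blood cultures it was at 8.76, 9.72 and 7.97. The groups overlapped, since the blood culture of rat S6 lay below the marrow cultures of rats S4 and S5. It passed the filter on 3 arrays only. Its difference of 0.78 ± 0.29 (95% interval 0.072 to 1.49, adjusted p = 0.303) was 0.55, 1.63 and 0.17 in rats S4, S5 and S6. The 3 fibulins thus had differences of 0.78, 1.52 and -1.76 (Fbln1, Fbln2 and Fbln5), and Fbln5 alone was lower in blood cultures in each rat; whether their differences differ from each other was not tested.

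Lox, lysyl oxidase, crosslinks both elastin and collagen. On its probe set 1368171_at it was at 12.20, 12.29 and 11.94 in blood cultures and at 12.36, 12.15 and 12.03 in marrow cultures, and the groups overlapped. The difference was -0.04 ± 0.13 (95% interval -0.35 to 0.28, adjusted p = 0.951). The probe set 1368172_a_at was at 11.40, 11.63 and 11.24 in blood cultures, against 11.70, 11.54 and 11.32 in marrow cultures, a difference of -0.10 ± 0.13 (95% interval -0.43 to 0.23, adjusted p = 0.852). On both, the blood culture of rat S5 was slightly higher than its marrow culture and those of rats S4 and S6 slightly lower.

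Loxl1, lysyl oxidase-like 1, is the family member that acts mainly on elastin and binds fibulin-5. Its probe set 1388902_at stood at 10.95, 10.50 and 11.53 in blood cultures and at 11.74, 11.23 and 12.00 in marrow cultures. The groups overlapped, because cultures of rat S6 were the highest and those of rat S5 the lowest in both, yet each rat's blood culture was below its own marrow culture. The differences of -0.79, -0.73 and -0.47 had a mean of -0.66 ± 0.13, or 1.58-fold (95% interval -0.98 to -0.34, adjusted p = 0.0818). This value depended on the pairing, and in the fit without the rat as a term the adjusted p was 0.406. With a mean-variance trend and robust estimation in the eBayes step the adjusted p was 0.0339. Under 3 other scalings of the arrays it was 0.105 to 0.120 in limma, and without a filter 0.186.

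Fn1 (1370234_at), fibronectin, was near the top of the scale on every array, where the highest value in the table is 13.31. It was at 13.04, 12.83 and 12.95 in blood cultures and at 12.93, 12.95 and 13.10 in marrow cultures. The difference was -0.05 ± 0.12 (95% interval -0.36 to 0.26, adjusted p = 0.925), with rat S4 higher and rats S5 and S6 lower in blood cultures. Eln (1388111_at), the gene of tropoelastin itself, was dimmer than the table's median throughout, at 6.95, 7.42 and 7.31 in blood cultures, against 7.55, 7.66 and 7.09 in marrow cultures. In the fit without a filter it differed by -0.21 ± 0.19 (95% interval -0.71 to 0.30, adjusted p = 0.818). With no detection call, these values do not show whether the elastin probe set measured transcript or background.

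**Figure D2:**
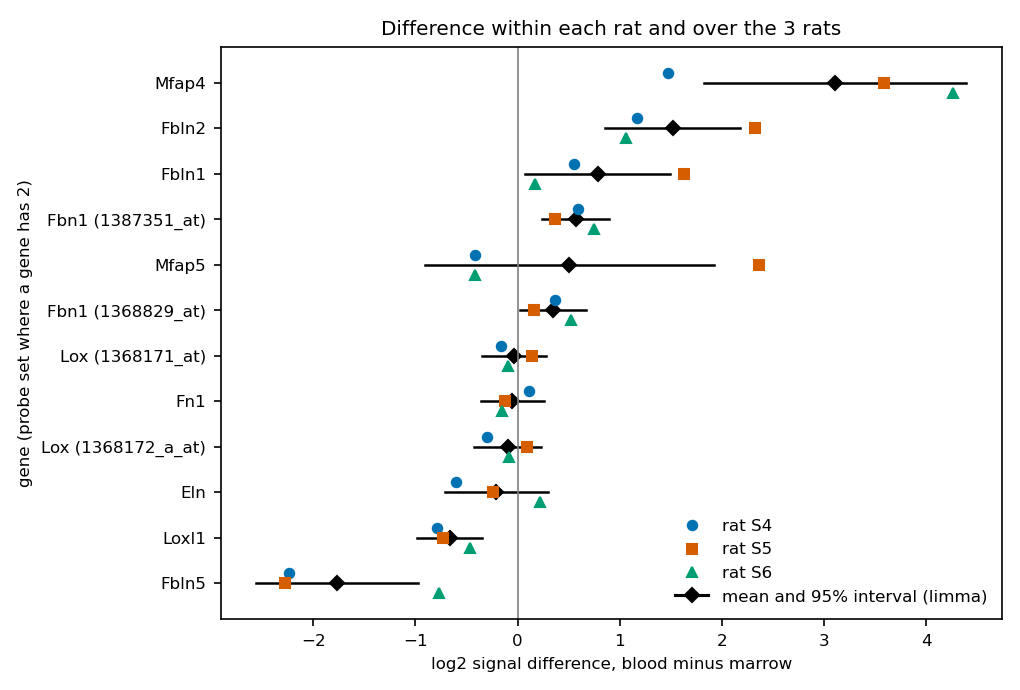
Log2 difference, blood minus marrow (horizontal axis), of each probe set (vertical axis) in the 3 rats (coloured symbols), with the limma mean and its unadjusted 95% interval (black; Eln from the fit without a filter). Mfap4 at 3.11 and Fbln5 at -1.76 are the ends of the order, Lox and Fn1 sit at 0, and the rat S5 value of Mfap5, 2.36, stands apart from -0.42 in both other rats.

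Of the 11 tested probe sets, 0 were called higher and 0 lower in limma at an adjusted p of 0.05, where 2.15% of all 8135 tested probe sets were called (0.983% higher and 1.17% lower). At an unadjusted p under 0.05 there were 7 of the 11, namely those of Mfap4, Fbln2, Fbln5, Loxl1 and Fbln1 and both of Fbn1, against 14.1% of all tested. The 3 rats agreed in sign for 7 of the 11, as they did for 34.3% of all tested. The groups of arrays did not overlap in 5 of the 11, against 18.4% of all tested. Blood arrays lay wholly above marrow arrays in 4 of these (7.09% of all tested) and wholly below in 1 (11.3%). The median difference was 0.35 against -0.01 over all tested probe sets, and the median size of a difference, whatever its sign, 0.57 against 0.13 over all tested. The 2 probe sets of Fbn1, and likewise of Lox, measure the same gene and are not independent. The members were also chosen with earlier results of these data known, so these shares describe the set and do not test it.

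**Figure D3:**
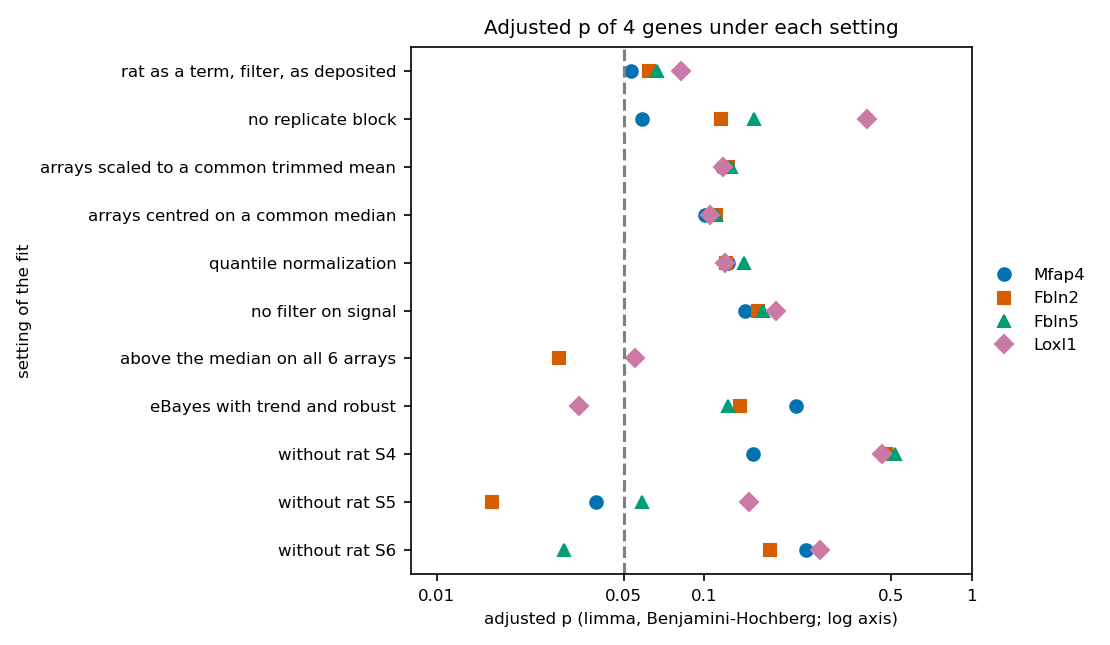
Adjusted p from limma (horizontal axis, logarithmic) of the 4 genes with the smallest values under each setting of the fit (vertical axis), with a dashed line at 0.05. Points lie left of the line for Fbln2 with the strictest filter and without rat S5, Mfap4 without rat S5, Fbln5 without rat S6, and Loxl1 with a variance trend.

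Other genes of the pathway were read from 4 lists, with 1 tested probe set per gene, the brightest. Their counts stand against 2.15% called and 14.1% at an unadjusted p under 0.05 over all tested probe sets in limma. In the list of elastic fibre and microfibril genes 15 were tested, and limma called 1 higher and 1 lower, with 13 not past the threshold. At an unadjusted p under 0.05 there were 8 of the 15, with differences of both signs, and the median difference of all 15 was 0.05. Ltbp4, a latent TGF-beta binding protein that also binds fibulin-5 and is needed for elastic fibre assembly, stood at 6.25, 6.72 and 6.77 in blood cultures, against 8.37, 9.47 and 9.19 in marrow cultures. It fell by 2.43 ± 0.16 (adjusted p = 0.00332), and each of its blood levels was under the table's median. Its probe set thus passed the filter through the marrow arrays alone, and the size of its difference is approximate. Without a filter its adjusted p in limma was 0.0230. Mfge8, a secreted RGD protein of vessel walls and phagocytosis, stood at 12.53, 12.23 and 12.30 in blood cultures, against 11.31, 10.71 and 11.52 in marrow cultures, and rose by 1.17 ± 0.17 (adjusted p = 0.0382). Without rat S4, where no probe set on the array passed, the adjusted p was 0.152 for Ltbp4 and 0.461 for Mfge8. Without rat S6 Mfge8 did not pass (adjusted p = 0.0977). Mfge8 also lost its call under each of 3 other scalings of the arrays (adjusted p = 0.0571 to 0.0696), without the rat as a term (0.0639) and without a filter (0.116). Vcan, the versican proteoglycan bound by fibulins and fibrillin, differed by -0.97 ± 0.21, Tgfb2 by 0.81 ± 0.24, the elastin interface protein gene Emilin1 by -0.82 ± 0.25 and Dcn, decorin, by -1.38 ± 0.45, with adjusted p of 0.109, 0.214, 0.225 and 0.25.

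The lysyl oxidase relatives Loxl2, Loxl3 and Loxl4 have no probe set under their names in the platform annotation. Of 15 tested genes in the list of crosslinking enzymes and their partners, limma called 0, and 5 had an unadjusted p under 0.05 (14.1% of all tested). Fmod, fibromodulin, which modulates collagen crosslinking, differed by 1.53 ± 0.27 (adjusted p = 0.0647) and Postn, periostin, which assists lysyl oxidase activation, by -2.60 ± 0.58 (adjusted p = 0.116). Postn was at 7.86, 11.52 and 9.60 in blood cultures, against 12.15, 12.54 and 12.09 in marrow cultures, lower in each blood culture by very unequal amounts. P4ha1, a collagen prolyl hydroxylase subunit, differed by 0.45 ± 0.13, and Slc31a1, the copper importer of cells that must supply the copper of lysyl oxidases, by 0.37 ± 0.15, with adjusted p of 0.202 and 0.349.

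Of 18 names on the list of fibronectin receptors and partners, 10 were on the array. The integrin genes Itga4, Itga5, Itgav, Itgb3, Itgb6 and Itgb8, and Thbs1, have no probe set under their names, so they were not measured. Itga8 and Plaur lay below the filter. Itga8 was at a mean of 8.81 in blood and 7.52 in marrow cultures. Without a filter it differed by 1.29 ± 0.25 and did not pass in limma (adjusted p = 0.170). The probe sets of Plaur differed by 0.02 and -0.31. None of the 8 tested genes passed in limma, and 0 had an unadjusted p under 0.05. Those with the smallest p were Sdc4, the heparan sulfate proteoglycan syndecan-4, at -0.33 ± 0.15, Igfbp3 at 1.15 ± 0.53, the integrin gene Itgb5 at -0.21 ± 0.18 and Ccn2, connective tissue growth factor, at 0.09 ± 0.13. Of 14 elastolytic enzymes and inhibitors, 2 rose and 12 did not pass, and 4 had an unadjusted p under 0.05 (14.1% of all tested). Both that rose encode inhibitors, but the inhibitor genes Timp1, at 0.01 ± 0.17, and Timp2, at 0.03 ± 0.14, did not pass. A second tested probe set of Timp2 differed by -0.67 (adjusted p = 0.163 in limma). Slpi, an inhibitor of leukocyte elastase, stood at 11.08, 12.25 and 9.57 in blood cultures, against 9.32, 10.62 and 8.19 in marrow cultures. It rose by 1.59 ± 0.13 (adjusted p = 0.00645), while its level varied more between rats than between sources, and without the rat as a term the adjusted p was 0.47. Timp3, a matrix-bound inhibitor of metalloproteinases, stood at 12.05, 9.53 and 11.90 in blood cultures, against 7.54, 7.21 and 6.32 in marrow cultures. All 3 marrow levels lay under the table's median, so the probe set passed the filter through the blood arrays alone and the size of its difference is approximate. It rose by 4.14 ± 0.59 (adjusted p = 0.0356), and a second tested probe set differed by 4.72 (adjusted p = 0.0205). Its 2 other probe sets, below the filter, differed by 1.66 and 3.89 and did not pass (adjusted p = 0.141 and 0.129 without a filter). Without rat S4, where no probe set on the array passed, the adjusted p of Slpi and Timp3 were 0.189 and 0.485. Without rat S6 they were 0.0529 and 0.123, and under 3 other scalings Timp3 stood at 0.0619 to 0.0737. Without a filter the adjusted p of Timp3 was 0.115, and with a variance trend 0.187. The elastases Ctss and Mmp2 differed by 0.51 ± 0.27 and -0.20 ± 0.12, the membrane metalloproteinase Mmp14 by -0.38 ± 0.12, and Cst3, the cathepsin inhibitor cystatin C, by 0.31 ± 0.12, and none of these passed.

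**Figure D4:**
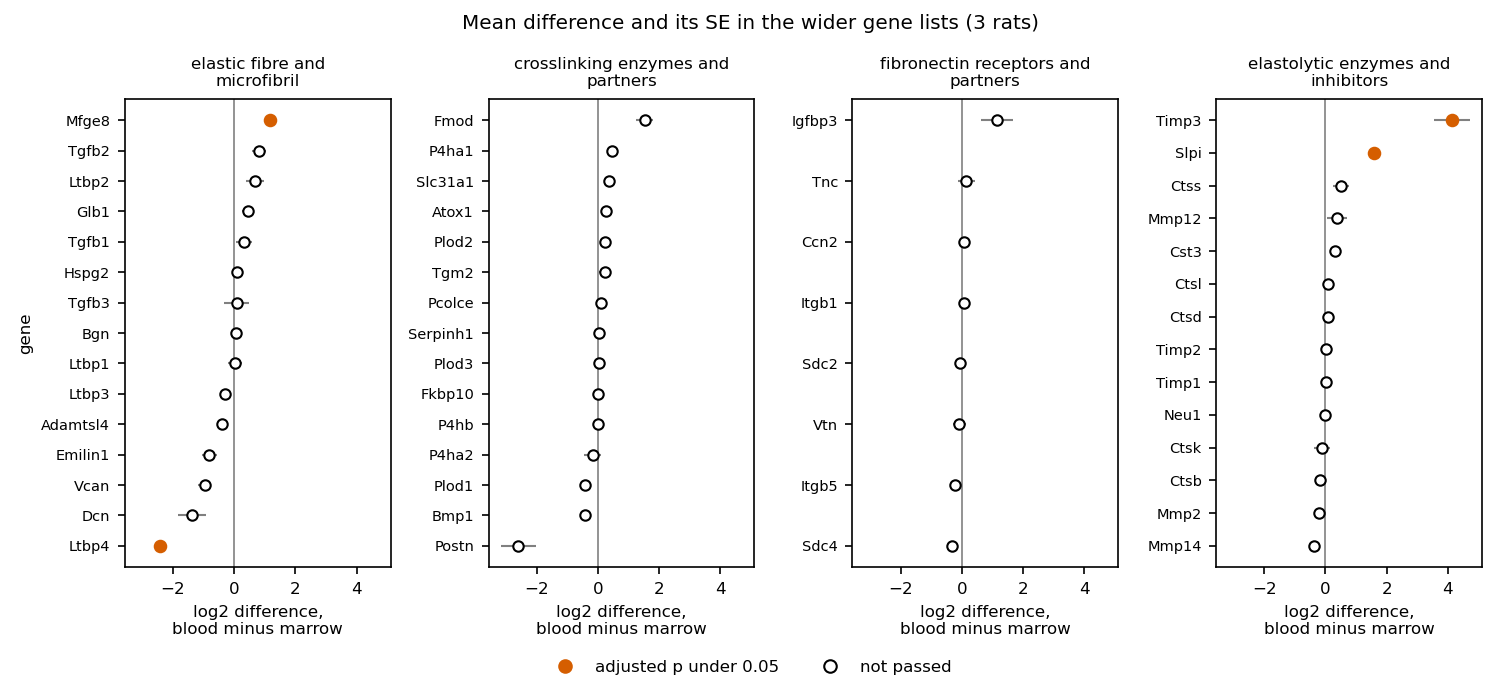
Mean log2 difference, blood minus marrow, with its SE (horizontal axis) for each tested gene (vertical axis) of the 4 wider lists, filled where the adjusted p was under 0.05. Ltbp4 at -2.43 and the 3 higher genes Mfge8, Slpi and Timp3 are filled, and most other genes lie near 0.

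All 12 stromal markers on the list passed the filter on signal, which does not mean that each was bright in every culture: Thy1 was at 7.02 and 7.41 in the blood cultures of rats S4 and S6, under the table's median. Of the 12, Eng was called higher in blood cultures, by 1.62 ± 0.23 (adjusted p = 0.038), and 4 had an unadjusted p under 0.05, among them Pdgfra at -1.93 ± 0.35 and Nt5e at 0.77 ± 0.15. Over all tested probe sets limma called 2.15%, and 14.1% had an unadjusted p under 0.05. Smooth muscle cells also make elastic fibre genes, and of 10 smooth muscle markers 7 were tested and 0 called in limma (5 at an unadjusted p under 0.05, median difference 0.63). Of these 5, Csrp1, Tagln, Tpm1 and Acta2 were higher in blood cultures and Des was lower, at -0.38 ± 0.14. Other tested probe sets of Tpm1 differed by 0.68 and -0.06. The mean signal per gene of the 7 tested markers was 9.71 to 10.32 in blood and 9.43 to 9.55 in marrow cultures, without overlap, while the defining markers Cnn1, Myh11 and Lmod1 lay below the filter. Of 12 macrophage and leukocyte markers 8 were tested and 0 called (1 at an unadjusted p under 0.05), and Ptprc, Csf1r, Itgam and Coro1a were below the filter. Mean signals were 10.04 to 10.27 in blood and 9.33 to 10.17 in marrow cultures. Of the 8, 7 had a difference above 0, with a median of 0.44, and Aif1 was at -0.06. In rats S4, S5 and S6, Cd53 differed by 1.47, 0.09 and 0.14 and Cd68 by 1.36, 0.16 and -0.11. Of 7 endothelial markers on the array 5 were below it, Pecam1 and Vwf included, and of the 2 tested Eng, which is also on the stromal list, was called higher. Of 5 mesothelial markers the keratins Krt8, Krt18 and Krt19 were below it, while Wt1 was called higher and Msln lower in blood cultures. The called Wt1 probe set was at 5.07 to 5.37 in marrow cultures, under the table's median, so it passed the filter through the blood arrays alone. Another Wt1 probe set, below the filter, differed by 0.45 and did not pass in limma without a filter (adjusted p = 0.318). The part of these cell types in the results was not tested, and in such bulk cultures fewer cells of a type and less RNA per cell cannot be told apart. Array medians were 8.12 to 8.22. Per the instrument files, blood arrays ran on fluidics modules 1 or 3 and marrow arrays on modules 2 or 4, so module and source cannot be told apart. Station 1 held rats S4 and S5 and station 2 held rat S6, so the differences of single rats given above lie within a station.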

How the data were processed

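The deposited table of log2 probe set signals from 6 RAE230A arrays was used as it is, with a pseudocount of 0. The base of its logarithm and its normalization are not stated, and per the submitters' processing notes GCOS was used by the authors. The values ran from 0 to 13.31, and 86 of 95538 cells were empty, none of them in the 12 probe sets. Other instrument entries, per the file headers, were read only for possible batches. The test was limma 3.58.1 in R 4.3.3 (two-sided, Benjamini-Hochberg over 8135 tested probe sets). The rat was a term of the fit, since the design text pairs the cultures by animal. Within a rat, the deviations of both arrays from their group means had correlations of -0.29, 0.30 and 0.33. Between a blood and a marrow array of different rats they ran from -0.47 to 0.42, a range that holds every value within a rat. Nothing in the labels gives further cultures per rat. With the rat in the fit, p-values rest on how the blood minus marrow difference varied over 3 animals, not on how levels varied between them. The eBayes step of limma also draws the variance of each probe set toward that of all tested probe sets. The fit was tested on simulated data. Members and lists were chosen with earlier results of these data known. Every member probe set was named, and in each list the genes past the threshold and up to 4 others with the smallest p. Alternatives were other scalings, filters, variance models, no rat term and leaving out each rat. Promoter windows came from RefSeq (GRCr8), and all 10 genes matched its gene identifiers.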

Additional observations from a re-analysis of the deposited data

How the results depend on the processing

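Each of the 11 tested probe sets kept its sign under every scaling, filter and variance model run on all 3 rats. Of 107 refits of single probe sets, 99 kept sign and side of the threshold, 5 newly passed it and 3 turned sign: Lox to 0.025 and 0.005 on its 2 probe sets without rat S4, and Mfap5 to -0.42 without rat S5. With each rat left out in turn, these 3 ranged from -0.125 to 0.025, from -0.19 to 0.005 and from -0.42 to 0.97. Leaving out a rat gave 0 to 197 higher and 0 to 209 lower calls over all probe sets, 0 to 2 and 0 to 1 over the elastic fibre members, and a member median of -0.02 to 0.34. It gave 0 to 3 higher and 0 to 3 lower microfibril genes, 0 to 1 higher and 0 to 1 lower crosslinking genes, and 0 to 2 higher elastolysis genes. Without rat S4, limma called 0 of 8135, with 770 at an unadjusted p under 0.05.

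In the fit with no replicate block, without the pairing by rat, 55 probe sets were higher and 75 lower; microfibril genes called higher went from 1 to 0 and elastolysis genes from 2 to 1, as Slpi no longer passed. The same counts, with Timp3 in place of Slpi as the gene that no longer passed, came with trimmed-mean scaling (49 lower calls in all), median centring (59), quantile normalization (49) and no filter (42 higher and 40 lower calls, member median 0.16 with Eln counted). Testing only probe sets above the median on all 6 arrays, which leaves Mfap4, Fbln5, Fbln1, Ltbp4 and Timp3 untested, gave 63 lower calls, 1 higher member (Fbln2, adjusted p = 0.0287), a member median of 0.16, 0 lower microfibril, 1 higher crosslinking and 1 higher elastolysis gene. A variance trend gave 1 lower member (Loxl1) and 1 higher elastolysis gene, Slpi, with Timp3 at an adjusted p of 0.187. The cause of these changes was not tested beyond the fewer probe sets or rats that enter. The base of the logarithm leaves every adjusted p as it is but not the folds: with natural logarithms Mfap4 would differ 22.3-fold, Fbln5 5.83-fold and Fbln2 4.56-fold.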

Other observations

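The marrow culture of rat S5 stood apart from those of rats S4 and S6 for Mfap5 (8.78 against 11.03 and 11.47) and Fbln2 (10.14 against 11.46 and 11.40). Igfbp3, a secreted binding protein of insulin-like growth factors, was also far lower there, at 6.73 against 10.12 and 9.35. The same culture was lowest for Mfap4 (6.71 against 8.50 and 7.25) and highest for Ltbp4 (9.47 against 8.37 and 9.19). For both of these genes rat S6 was close to rat S5, and rat S4 lay further off. In blood cultures, rat S5 stood apart for Dcn, at 12.89 against 10.55 and 10.44. For Postn it was highest, at 11.52 against 7.86 and 9.60, with rat S6 between the other rats. These values were picked out after they were seen.

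The 4 genes whose signal ran most like that of the brighter Lox probe set over the 6 arrays were Man1a2, Mix23, Uqcc1 and Plpp4, with Pearson r of 0.964, 0.962, 0.96 and 0.955. These are the highest among all tested genes over only 6 arrays of paired cultures, and are given as a description. The Fbn1 probe sets correlated at 0.991 over the 6 arrays and those of Lox at 0.937.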
